A study of Gallus gallus with 6 samples.

Results

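Ferritin and 9 further genes of iron handling were examined in chicken ovarian cancer cells sorted by aldehyde dehydrogenase (ALDH) activity. The 10 genes, FTH1, NCOA4, TFRC, SLC11A2, SLC11A1, SLC40A1, HEPHL1, HMOX1, ACO1 and IREB2, were taken by name from 16963 genes in the deposited tables. All 10 passed the filter on low counts, HEPHL1 only through the group where it was high. RNA was sequenced from ALDH+ and ALDH- cells of C27, C29 and C30, which are 3 primary ovarian adenocarcinoma lines (COVCAR) grown from chicken ascites. Cells of each line were grown to confluence on gelatin, detached with trypsin and sorted by flow cytometry, so that each group has 3 libraries, 1 per line. Values are given in the line order C27, C29, C30 where no line is named. No genotype, drug or age distinguishes the groups in the labels, and primary ascites cultures can hold cells other than tumour cells.

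Iron enters most cells as transferrin taken up by its receptor, is used or stored inside ferritin shells, and leaves through the exporter ferroportin. A pair of RNA-binding proteins, encoded by ACO1 and IREB2, bind hairpins in ferritin and transferrin receptor mRNA when iron is scarce, blocking ferritin translation and stabilising receptor mRNA. That control of ferritin acts on translation, which mRNA counts do not show. Macrophages handle large amounts of iron because they break down haem from engulfed red cells, and ALDH activity is a common handle for isolating stem-like tumour cells.

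Libraries held 22170788 to 26747453 estimated counts. Cell type markers were read before the iron genes. Of 18 tested macrophage markers 17 were lower in ALDH+ cells, where 5.3% of all genes tested were lower. MRC1 and CX3CR1 were not tested, and CD163, CD68, MPEG1, AIF1 and TYROBP had no named entry. The 20 listed with a name summed to 460, 436.1 and 243 CPM in ALDH+, against 6612, 6454 and 12486 CPM in ALDH- cells. CPM are counts relative to the library total, scaled by TMM factors. The defining macrophage gene SPI1 had 10.5, 7.95 and 6.58 CPM in ALDH+, against 229.6, 193.7 and 375.5 CPM in ALDH- cells, and no macrophage marker was at 0 in all libraries. CSF1R, the macrophage growth factor receptor gene, had 29.3, 23.9 and 9.25 CPM in ALDH+, against 650.3, 294.8 and 500.7 CPM in ALDH- cells, and MARCO, CTSS and LAPTM5 were the most abundant markers of the list. A second list, of 10 leukocyte markers, summed to 42.3 to 50.9 CPM in ALDH+ and 738.9 to 1666 CPM in ALDH- libraries. Of its 10 genes 7 were lower, against the same 5.3%. Haemoglobin RNA was scarce in both fractions, with 4 of 6 haemoglobin genes at 0 throughout and HBBA at no more than 21 counts per library. The 10 named genes of the red cell list summed to 1.81, 1.49 and 0.686 CPM in ALDH+, against 17.9, 17.4 and 37.1 CPM in ALDH- cells. The haemoglobin genes among them summed to only 0.568, 0.321 and 1.05 CPM in ALDH- cells. Most of the list's sum there thus came from its other genes. Of the red cell list 2 genes could be tested and 1 was lower. The epithelial marker KRT7 stood at 1078 to 2940 CPM in ALDH+ and 629.1 to 2294 CPM in ALDH- cells, but EPCAM had at most 45 counts in any library. The epithelial adhesion gene CDH1 had 0.738, 1.35 and 1.53 CPM in ALDH+ against 7.88, 3.99 and 49.5 CPM in ALDH- cells, and was called lower. The other 5 epithelial markers tested had log2 changes above 0, and KRT18 and WT1 were higher in a fit blocked on line (edgeR adjusted p = 0.0224 and 0.0331). The list of 8 named markers summed to 3131, 2890 and 1164 CPM in ALDH+ against 2399, 1444 and 727.3 CPM in ALDH- cells. COL1A1 was abundant in both, at 10915 to 22045 CPM in ALDH+ and 8904 to 17093 CPM in ALDH- cells, and the summed fibroblast list was higher in ALDH+ in each line, by 0.33, 1.09 and 0.58 on the log2 scale. All 11 fibroblast markers tested had log2 changes above 0 (median 0.81). None passed edgeR without a block (4 at an unadjusted p under 0.05), while 4 were higher in the fit blocked on line (LUM, PDGFRA, PDGFRB and MFAP5) and DESeq2 called 2. Of all genes tested, 5.92% were higher in the blocked fit and DESeq2 called 11.6% in either direction. The share of all genes at an unadjusted p under 0.05 is not given, so such counts have no background here or below. The part of other cell types in the results below was not tested. In bulk RNA, fewer cells of a type and less RNA per cell cannot be told apart.

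The study asked which genes differ between ALDH+ and ALDH- cells. Ferritin heavy chain (FTH1), haem oxygenase (HMOX1) and the phagocyte metal transporter SLC11A1 were lower in ALDH+ cells, by 5.77-, 6.62- and 10.7-fold. These were 3 of the 10 genes, and none was higher, in edgeR's quasi-likelihood test at an adjusted p under 0.05. Across all 12811 genes tested the test called 6.14%, with 5.3% lower and 0.835% higher in ALDH+ cells. The fractions come in pairs from the same line. A second fit, blocked on line, called 5 of the 10 lower and 1 higher, against a background of 7.6% lower and 5.92% higher. The added calls were ACO1 and HEPHL1 (lower) and SLC40A1 (higher). DESeq2 without a block called 5 lower (the 3, ACO1 and HEPHL1) and 0 higher, against a background of 7.27% lower and 4.34% higher. In it 6 had an unadjusted p under 0.05, a threshold for which no share of all genes is given. The median log2 change was -1.01 over the 10 genes and 0.00 over all genes tested. CPM of the fractions did not overlap for 7 of the 10 genes, 6 lower and 1 higher, where 25.8% of all genes had no overlap (14.6% lower, 11.2% higher). The 10 genes and all lists used here were chosen with earlier results of these data known. Set beside all genes, their shares and medians therefore do not test a set.

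**Figure D1:**
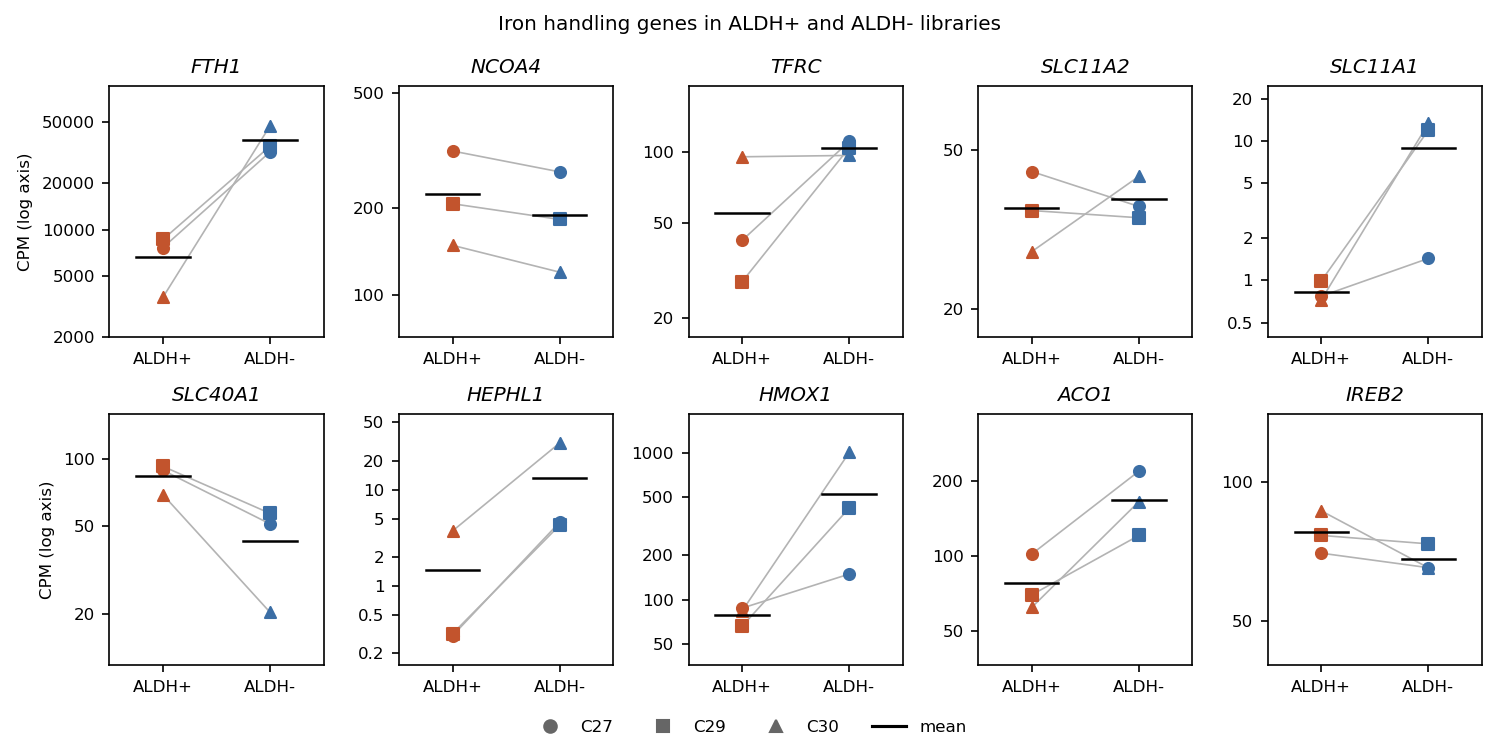
Level of each gene in every library, in CPM on a log axis whose range differs between panels. Points are libraries, marker shapes are lines, grey lines join the 2 fractions of a line and black bars are means of 3. FTH1, HMOX1, SLC11A1, ACO1, HEPHL1 and TFRC lie lower in ALDH+ in all 3 lines and SLC40A1 lies higher. TFRC of C30 is nearly level, at 95.2 CPM in ALDH+ and 96.5 CPM in ALDH- cells.

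Storage came first. FTH1 (ENSGALG00000007220), whose protein builds the ferritin shell and oxidises iron for storage, had 7626, 8621 and 3616 CPM in ALDH+ cells, against 32112, 35005 and 47484 CPM in ALDH- cells. Every ALDH+ library lay far below every ALDH- library. Its mean was 6621 ± 2649 CPM in ALDH+ and 38200 ± 8169 CPM in ALDH- cells (SD, n = 3 each), with a log2 change of -2.53 (SE 0.47, edgeR adjusted p = 0.0171). Leaving out C27 ALDH+ ended the call (adjusted p = 0.0752) and leaving out each of the other 5 libraries did not.

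FTH1 is among the most abundant transcripts of these cells. It took 0.852, 0.864 and 0.3895% of gene counts in ALDH+ cells, against 3.351, 3.338 and 3.949% in ALDH- cells. Per transcript length it ranked 1, 6 and 13 among all genes in ALDH+, and 1 in each ALDH- library. In TPM, which scale for transcript length, it stood at 18041, 16103 and 7884 in ALDH+, against 62784, 55717 and 59554 in ALDH- cells. TPM carry no TMM scaling, and the median change of all genes in log2(TPM + 1) was 0.36. A gene that the table names FTL, the light chain partner in mammals, had no more than 28.3 TPM in any library and did not pass (log2 0.44, edgeR adjusted p = 0.398). FTL was singled out after its values were seen.

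NCOA4 (ENSGALG00000002066), the receptor that carries ferritin to the lysosome so that its iron is released, did not follow FTH1. It had 314.7, 206.7 and 148.4 CPM in ALDH+ cells, against 266.5, 182.4 and 119.8 CPM in ALDH- cells. It was slightly higher in ALDH+ in each line, but the groups overlapped because the lines differ more than the fractions. The log2 change was 0.24 (SE 0.38, edgeR adjusted p = 0.759), with an interval of 2 SE on each side from -0.52 to 0.99. NCOA4 did not pass in the fit blocked on line either (0.24, SE 0.20, edgeR adjusted p = 0.444).

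Among uptake genes, TFRC (ENSGALG00000007485) encodes the transferrin receptor, the main entry route for iron in dividing cells. TFRC had 42.3, 28.4 and 95.2 CPM in ALDH+ cells, against 110.5, 104 and 96.5 CPM in ALDH- cells. In CPM the ALDH- libraries were nearly equal, while the ALDH+ libraries of C27 and C29 were low and that of C30 was not. The log2 change of -0.91 did not pass (SE 0.42, edgeR adjusted p = 0.267). With the C30 ALDH+ library left out it was -1.54 and passed (adjusted p = 0.0242), and the blocked fit passed without either C30 library (-1.61 and -1.57, against -1.10 and an adjusted p of 0.091 with all). In TPM the ALDH- libraries were less even, at 58.8, 47.1 and 35. The fractions of TFRC overlapped in TPM, since C30 stood at 57 TPM in ALDH+ and 35 TPM in ALDH- cells. The change of TFRC in log2(TPM + 1) was -0.66, and -1.03 relative to the median of all genes.

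The annotation holds 2 TFRC transcripts, of 2499 and 2856 bases. The shorter held 39.9, 63.7 and 42.4% of the gene's estimated counts in ALDH+ cells, against 48.9, 71.4 and 76.3% in ALDH- cells. Its share was thus lower in ALDH+ in each line, by the widest margin in C30. The shorter transcript had 11.8, 9.97 and 26.2 TPM in ALDH+, against 30.9, 35 and 27.6 TPM in ALDH- cells. The longer had 15.4, 4.93 and 30.8 TPM in ALDH+, against 27.9, 12.1 and 7.44 TPM in ALDH- cells. In C30 the longer transcript was therefore higher in ALDH+ cells, opposite to C27 and C29. In the authors' deposited table the shorter has a log2 change of -1.4 (false discovery rate 0.0125) and the longer one of -0.3 (0.893). Transcript counts are estimates that divide reads common to both transcripts, and the shift in shares was not tested.

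**Figure D2:**
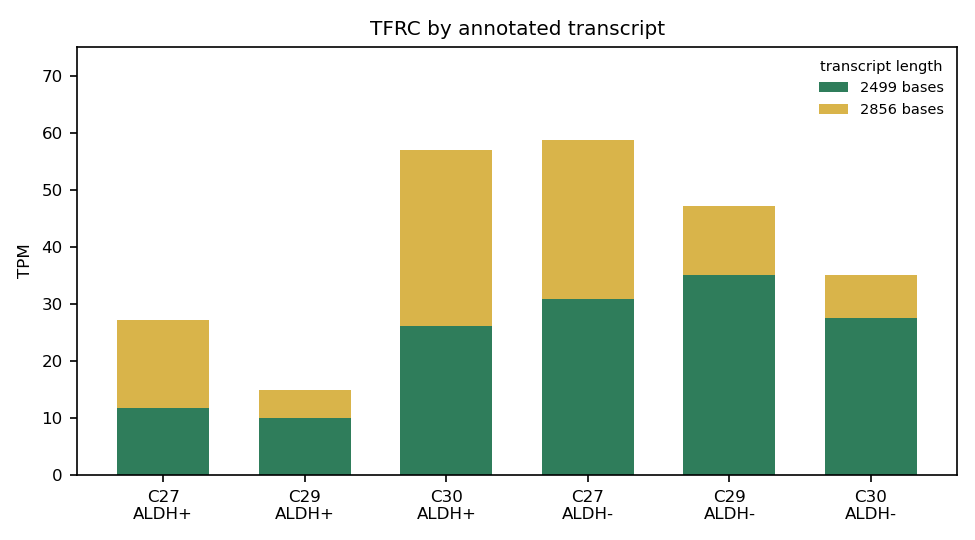
TPM of the 2 annotated TFRC transcripts, stacked, in each library (ALDH+ on the left, ALDH- on the right). The shorter transcript (green) reaches 9.97 to 26.2 TPM in ALDH+ and 27.6 to 35 TPM in ALDH- libraries. The longer one (yellow) is highest in the ALDH+ library of C30, at 30.8 TPM.

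SLC11A2 (ENSGALG00000041533) encodes the divalent metal transporter that moves iron out of the endosome after transferrin uptake. SLC11A2 had 44.3, 35.4 and 27.9 CPM in ALDH+ cells, against 36.2, 33.9 and 43.1 CPM in ALDH- cells. The groups overlapped fully, and the log2 change was -0.07 (SE 0.25, edgeR adjusted p = 0.894), with an interval of 2 SE on each side from -0.58 to 0.43. Its sign was positive under other scalings, at 0.05 with upper quartile factors and 0.12 where libraries were scaled by size alone. The median of all genes was then 0.12 and 0.18, and relative to it SLC11A2 stood at -0.07 and -0.06. Of 8 annotated SLC11A2 transcripts, 1 of 2770 bases held 80.4% of the estimated counts, with 80.2% in ALDH+ and 80.6% in ALDH- libraries.

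SLC11A1 (ENSGALG00000011434), known as NRAMP1, encodes a related transporter that removes metal ions from the phagosome and, in mammals and chickens, bears on resistance to intracellular bacteria. It was rare, at 0.772, 0.994 and 0.727 CPM in ALDH+ cells, against 1.44, 11.9 and 13.4 CPM in ALDH- cells. These values rest on 23, 22 and 18 counts in ALDH+ and 38, 260 and 268 counts in ALDH- cells. The ALDH- libraries of C29 and C30 stood well above the rest, and that of C27 lay close to the ALDH+ level. The log2 change was -3.42 (SE 0.78, edgeR adjusted p = 0.0415). SLC11A1 did not pass in limma on log2(TPM + 1) (-1.66, adjusted p = 0.083) or log2(TPM + 0.1) (-2.33, 0.0833), or in limma-voom (-2.80, 0.168). SLC11A1 entered the TPM fits through its ALDH- libraries, as it had 0.695 to 0.811 TPM in ALDH+. It passed with DESeq2, upper quartile factors, scaling by size alone and no filter on low counts. Leaving out any library other than C27 ALDH- ended the edgeR call (adjusted p of 0.112 to 0.151), and without that library the change was -3.89 (adjusted p = 0.0019). Over all genes, 786 were called with all libraries, 1123 without C27 ALDH- and 443 to 567 without any other library. In the blocked fit (log2 -2.97, adjusted p = 0.0286) the call was lost without either C30 library (adjusted p = 0.0575 without ALDH+ and 0.067 without ALDH-).

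Export had the one gene with a call upward. SLC40A1 (ENSGALG00000043618) encodes ferroportin, the cell's iron exporter. SLC40A1 had 88.7, 92.4 and 68.9 CPM in ALDH+ cells, against 50.9, 56.7 and 20.3 CPM in ALDH- cells. Every ALDH+ library was above every ALDH- library. The log2 change was 0.97 (SE 0.38, edgeR adjusted p = 0.197), and 1.08 in the blocked fit (SE 0.26, adjusted p = 0.038). The blocked call held without either C29 library and was lost without any other (adjusted p of 0.065 to 0.077). Over all genes the blocked fit called 2377 without C29 ALDH+ and 2447 without C29 ALDH-. It called 1732 with all libraries and 1143 to 1246 without any other library. A single transcript of 4845 bases carried all counts of SLC40A1, and the other 2 annotated transcripts were listed at 0.

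HEPHL1 (ENSGALG00000043027) encodes a membrane-bound copper ferroxidase related to hephaestin, which oxidises iron as it leaves the cell. HEPHL1 had 0.302, 0.316 and 3.71 CPM in ALDH+ cells, against 4.58, 4.27 and 30.6 CPM in ALDH- cells. Counts were 9, 7 and 92 in ALDH+ and 121, 93 and 614 in ALDH- libraries. HEPHL1 thus passed the filter on low counts through the ALDH- libraries, where it was high. C30 was the high line in both fractions, so that its ALDH+ library came close to the ALDH- libraries of the other lines, and in TPM the groups overlapped. In log2(TPM + 1) the change of HEPHL1 was -1.39, and -1.75 relative to the median of all genes. The log2 change was -3.18 (SE 1.19, edgeR adjusted p = 0.181) without and -3.48 (SE 0.34, adjusted p = 0.00136) with the block. The blocked call held without each library in turn (edgeR adjusted p from 3.53e-05 to 0.00239). Such fits have few residual degrees of freedom, and an adjusted p below that with all libraries does not mean stronger data. Leaving out either library of a line takes that line out of the blocked comparison, so these fits check line by line. The change without the block moved to -1.56 when C30 ALDH- was left out and to -5.37 when C30 ALDH+ was left out.

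HMOX1 (ENSGALG00000012550) encodes the inducible enzyme that opens the haem ring and frees its iron. HMOX1 had 87.6, 66 and 83.9 CPM in ALDH+ cells, against 149.4, 419.6 and 1003 CPM in ALDH- cells. The ALDH+ libraries were close together, and the ALDH- libraries spread 6.72-fold, with C27 lowest and C30 highest. The log2 change was -2.73 (SE 0.62, edgeR adjusted p = 0.0394), and HMOX1 did not pass in limma-voom (-2.35, adjusted p = 0.0595). The call was kept when C27 ALDH- was left out (-3.14, adjusted p = 0.0053) and lost without any of the other 5 (adjusted p of 0.0799 to 0.129), and without C30 ALDH- the change was smaller, at -1.79. Over all genes the fit without C27 ALDH- called 1123, against 786 with all libraries. With the block the call of HMOX1 was kept in all 6 such fits, which have few residual degrees of freedom. There, leaving out either library of a line takes that line out of the comparison, so the fits pair up by line. The log2 change was -3.10 without either C27 library and -2.18 without either C29 library. It was -1.70 without C30 ALDH+ and -1.66 without C30 ALDH-.

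The iron sensors differed from each other. ACO1 (ENSGALG00000002162) encodes cytosolic aconitase, which becomes an RNA-binding regulator when it loses its iron-sulphur cluster. ACO1 had 101.8, 69.7 and 62.1 CPM in ALDH+ cells, against 219.6, 121 and 165.6 CPM in ALDH- cells. The fractions did not overlap in CPM but did in TPM. In log2(TPM + 1) the change of ACO1 was -0.65, and -1.02 relative to the median of all genes. ACO1 was lower in ALDH+ in each line by 0.79 to 1.42 on the log2 scale. The log2 change was -1.12 (SE 0.30, edgeR adjusted p = 0.0776) without and -1.11 (SE 0.21, adjusted p = 0.0187) with the block, whose call ended without either C27 library (adjusted p = 0.103 without ALDH+ and 0.087 without ALDH-).

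IREB2 (ENSGALG00000035462), the second sensor, is controlled by degradation of its protein when iron is plentiful. IREB2 had 70.1, 76.5 and 86.5 CPM in ALDH+ cells, against 65.2, 73.4 and 65.1 CPM in ALDH- cells. The groups overlapped in CPM, and the log2 change was 0.19 (SE 0.20, edgeR adjusted p = 0.613), with an interval of 2 SE on each side from -0.20 to 0.59. In TPM they did not overlap and ALDH+ was higher, but the median of all genes shifted that way too. The change of IREB2 in log2(TPM + 1) was 0.61, where the median of all genes was 0.36, and relative to it 0.25.

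**Figure D3:**
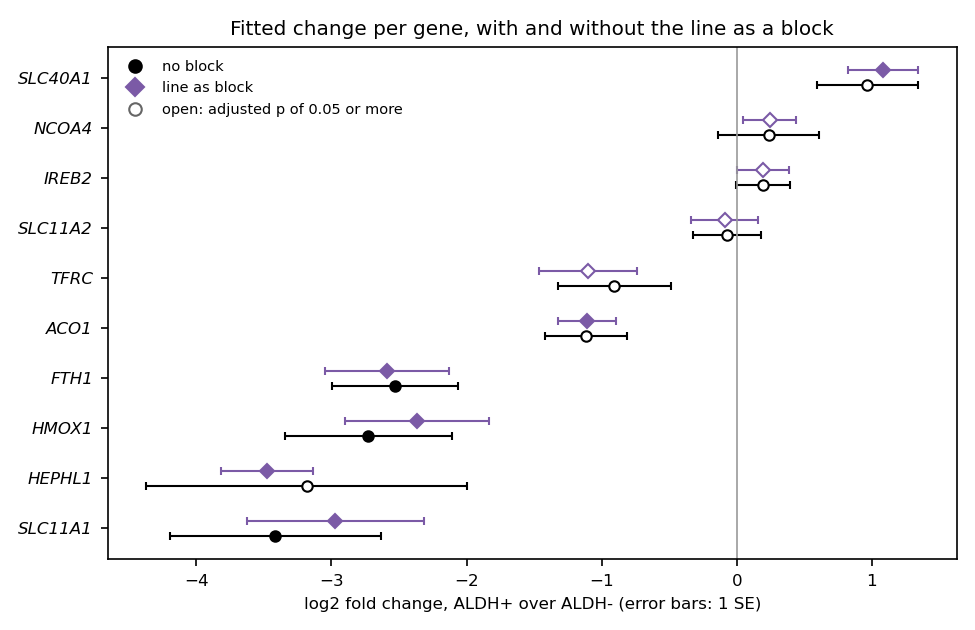
Fitted log2 change (ALDH+ over ALDH-) of the 10 genes with 1 SE, without a block (circles) and with a block on line (diamonds). Filled symbols have an adjusted p under 0.05. FTH1, HMOX1 and SLC11A1 are filled in both fits, while ACO1, HEPHL1 and SLC40A1 are filled in the blocked fit and open in the other.

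The authors' deposited table tests transcripts and carries a pair of corrected p columns that differ for these genes. Its adjusted p equals the p value times the number of transcripts still to be tested, a stepwise family-wise correction, and passes 0.05 for 608 transcripts. Its false discovery rate passes for 1864. FTH1 passes both in the authors' deposited table (adjusted p = 1.84e-05). HMOX1, SLC11A1, ACO1 and the shorter TFRC transcript pass by the false discovery rate alone there, at 0.0004, 0.0009, 0.0282 and 0.0125. HEPHL1 (0.0517) and SLC40A1 (0.1451) pass neither in the authors' deposited table.

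Within lines, the size of the difference varied by gene. For FTH1 the log2 difference between ALDH+ and ALDH- cells was -2.07, -2.02 and -3.71 in C27, C29 and C30. For HMOX1 it was -0.77, -2.67 and -3.58, and for SLC11A1 -0.83, -3.48 and -4.05. Both of these genes thus differed least in C27. The summed macrophage markers differed by -3.85, -3.89 and -5.68 in the same lines. FTH1 and these markers both differed most in C30 and by similar amounts in C27 and C29. That order was not particular to them. The summed leukocyte markers differed by -4.13, -4.13 and -5.11, and the red cell list by -3.31, -3.55 and -5.76. Of the 10 genes, all but TFRC and HEPHL1 had their largest difference, in either direction, in C30. HEPHL1 differed by -3.60, -3.45 and -3.01. Its ALDH+ libraries hold 9, 7 and 92 counts, so the prior count of 2 draws the values of C27 and C29 nearer to 0. The summed markers carry no prior count. TFRC ran the other way from FTH1, at -1.38, -1.87 and -0.02, with C30 smallest. Each line has 1 library per fraction, so these differences between lines were not tested.

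**Figure D4:**
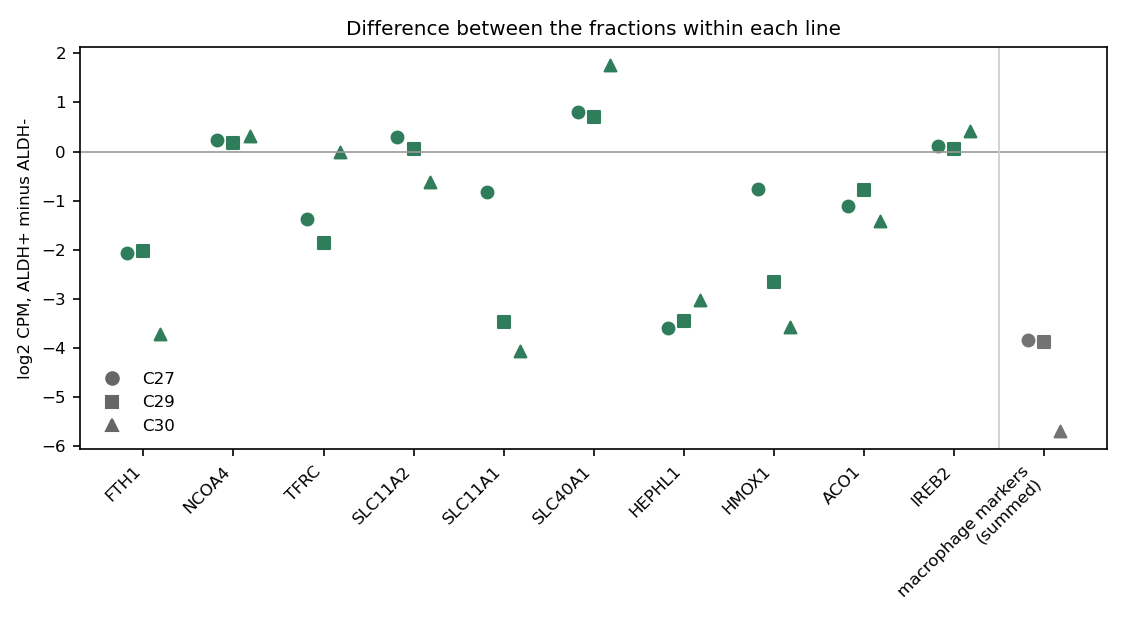
Difference in log2 CPM between the ALDH+ and the ALDH- library of each line (marker shapes), for the 10 genes and, in grey, for the summed macrophage markers. HMOX1 and SLC11A1 lie near -0.8 in C27 and between -2.67 and -4.05 in C29 and C30, whereas HEPHL1 lies between -3.60 and -3.01 in all 3.

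Levels of the lines themselves were tested over both fractions, with the fraction in the model. HEPHL1 alone of the 10 genes passed (edgeR adjusted p = 0.0437), against a background of 0.367% of all genes tested. Its fitted level was 3.10 higher in C30 than in C27 on the log2 scale, and -0.04 from it in C29. NCOA4 was highest in C27 and lowest in C30 in both fractions, with log2 differences from C27 of -0.58 in C29 and -1.12 in C30, but did not pass (edgeR adjusted p = 0.133). NCOA4 passed when either C29 library was left out. FTH1 gave an adjusted p of 0.896 in that edgeR test.

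Levels between genes were compared in TPM. In ALDH+ cells FTH1 averaged 14009 ± 5393 TPM (SD, n = 3), followed by NCOA4 at 100.5 ± 46.9 and HMOX1 at 93.9 ± 23.7, whose ranges overlapped. IREB2 (37 ± 5.2), ACO1 (35.8 ± 13.2), TFRC (33 ± 21.6), SLC40A1 (26.1 ± 4.37) and SLC11A2 (22.7 ± 6.93) followed, each overlapping the next. SLC11A1 and HEPHL1 came last, at 0.768 ± 0.063 and 0.659 ± 0.905 TPM. In ALDH- cells the order was FTH1 (59352 ± 3538 TPM), HMOX1 (406.7 ± 270.2), NCOA4 (66 ± 37.8), ACO1 (58.2 ± 27.2), TFRC (47 ± 11.9), IREB2 (24.1 ± 5.06), SLC11A2 (17.4 ± 2.37), SLC40A1 (10.5 ± 5.82), SLC11A1 (5.63 ± 3.85) and HEPHL1 (3.79 ± 3.75). Ranges did not overlap there between FTH1 and HMOX1, HMOX1 and NCOA4, TFRC and IREB2, or SLC11A2 and SLC40A1.

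Genes with the most similar pattern were sought by the root mean square distance between centred log2 CPM profiles over the 6 libraries, among about 7340 named genes with a mean of at least 10 CPM. Nearest to FTH1 were PLBD1, NPC2, ASS1, LMO2 and SIRPA, at distances of 0.213 to 0.239, where the profile of FTH1 itself varied by 1.37 around its mean. NPC2, for example, had 160.8, 170.8 and 108 CPM in ALDH+, against 654.3, 793.3 and 1282 CPM in ALDH- cells. TFRC was nearest to FAM105A, ADSS, SLC30A1, S1PR1 and ALCAM (0.178 to 0.334, own variation 0.751). SLC11A1 was nearest to TRPT1, HMOX1, PLIN4, ABCG2 and RAB20 (0.557 to 0.666, own variation 1.73), so that HMOX1 stood second. The distance between SLC11A1 and HMOX1 was 0.559. TRPT1 had 2.69, 3.66 and 2.62 CPM in ALDH+, against 7.04, 16.1 and 45.8 CPM in ALDH- cells.

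The rest of the pathway was read from 4 lists of other iron genes, on uptake, storage with export and sensing, haem, and iron-sulphur cluster assembly in mitochondria and cytosol. Of 60 tested, 4 were lower and none was higher in ALDH+ cells, or 6.67%, against the background of 6.14%. In the blocked fit 6 were lower and 2 higher, or 13.3% against 13.5%. Their median log2 change was -0.10.

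Of 11 uptake genes tested 2 were lower, where 5.3% of all genes tested were lower. TF, the serum and egg-white iron carrier (ovotransferrin), had 40.7, 38.9 and 21.9 CPM in ALDH+ cells, against 877.4, 880.9 and 1650 CPM in ALDH- cells (log2 -5.07, SE 0.43, edgeR adjusted p = 0.0011). The fractions were far apart in each line. STEAP4, a metalloreductase that converts ferric to ferrous iron, had 1.31, 1.13 and 4.24 CPM in ALDH+, against 10.6, 31.9 and 29.9 CPM in ALDH- cells (log2 -3.43, SE 0.66, edgeR adjusted p = 0.0195). Its call ended when C27 ALDH+, C29 ALDH+, C29 ALDH- or C30 ALDH- was left out (adjusted p up to 0.0743), and its change was -4.28 without C30 ALDH+. Its relative STEAP2 went the other way, at 10.7, 11.6 and 7.95 CPM in ALDH+, against 4.01, 3.12 and 1.39 CPM in ALDH- cells. The groups did not overlap, and STEAP2 passed in the blocked fit (log2 1.91, edgeR adjusted p = 0.0115) but not in the edgeR fit without it (1.82, 0.0539). Without a block STEAP2 also passed in 5 of the other settings, among them DESeq2 (adjusted p = 0.000698) and edgeR with no filter on low counts (0.0431), and when C27 ALDH- was left out (0.0346). That last fit called 1123 of all genes, against 786 with all libraries.

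Of 8 tested genes of storage, export and sensing none was called without the block. Of these 8, 2 had an unadjusted p under 0.05 in edgeR, a threshold for which no share of all genes is given. DESeq2 called 0, where it called 11.6% of all genes. CP, which encodes ceruloplasmin, the copper ferroxidase of plasma and cell surfaces, was higher with the block (log2 1.54, edgeR adjusted p = 0.0225). CP had 258, 551.7 and 109.2 CPM in ALDH+ cells, against 145.6, 110.3 and 39.6 CPM in ALDH- cells, so each line was higher in ALDH+ although the groups overlapped. CP and SLC40A1 were thus higher and HEPHL1 lower with the block.

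Of 16 haem genes tested 2 were lower, and 4 with the block, where 5.3% and 7.6% of all genes tested were lower. FLVCR2, a member of the haem exporter family that is now known mainly as a choline carrier in mammals, had 8.09, 12 and 2.91 CPM in ALDH+, against 49.3, 46.1 and 153.3 CPM in ALDH- cells (log2 -3.44, SE 0.66, edgeR adjusted p = 0.0203). HEBP1, a haem-binding protein gene, had 61.6, 23.5 and 27.2 CPM in ALDH+, against 301.3, 167.9 and 264.7 CPM in ALDH- cells (log2 -2.71, SE 0.43, edgeR adjusted p = 0.00909). Neither gene's groups overlapped, and leaving out C27 ALDH+ or C30 ALDH- ended the call of FLVCR2 (adjusted p up to 0.0731), whose change was -2.59 without C30 ALDH-. With the block SLC48A1, which moves haem out of the lysosome, and BLVRA, which reduces the biliverdin that haem oxygenase makes, were lower too (log2 -1.96 and -2.12, edgeR adjusted p = 0.04 and 0.00651). Without the block SLC48A1 also passed in DESeq2 (adjusted p = 0.00275) and limma-voom (adjusted p = 0.0482), and BLVRA passed in DESeq2 (adjusted p = 0.0274). In edgeR without the block SLC48A1 passed when C27 ALDH- was left out (adjusted p = 0.032). That fit called 1123 of all genes, against 786 with all libraries. The genes of haem synthesis and the constitutive haem oxygenase HMOX2 did not pass in either fit.

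None of 25 iron-sulphur cluster and mitochondrial iron genes was called in edgeR with or without the block when all 6 libraries were used. CIAO1, of the cytosolic assembly machinery, was called without the block when C27 ALDH- was left out (log2 -0.86, edgeR adjusted p = 0.142 with all libraries). The fit without that library called 1123 of all genes, against 786 with all libraries. The log2 changes of the 25 genes ran from -0.86 to 0.45, with a median of -0.16, and 18 were below 0. At an unadjusted p under 0.05, for which no share of all genes is given, there were 2 without the block and 3 with it. DESeq2 called 0, where it called 11.6% of all genes.

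HMOX1 is also a target of the oxidant response, which the transcription factor NRF2 (gene NFE2L2) drives and BACH1 represses. Of 13 oxidant response genes tested 1 was lower, where 5.3% of all genes tested were lower. This was NFE2L2, at 96.3, 68.9 and 67.1 CPM in ALDH+, against 173.7, 143.7 and 206.5 CPM in ALDH- cells (log2 -1.17, SE 0.25, edgeR adjusted p = 0.0304). The call of NFE2L2 ended whichever library was left out (edgeR adjusted p of 0.0561 to 0.156). It also ended in edgeR with upper quartile factors (adjusted p = 0.0516) and with scaling by size alone (0.0749). In limma it ended on log2(TPM + 1) (adjusted p = 0.179) and log2(TPM + 0.1) (0.183). The call was kept in DESeq2, in limma-voom and in edgeR with no filter on low counts. With the block 4 of the 13 were lower, where 7.6% of all genes tested were lower. The others were the autophagy adaptor SQSTM1 (log2 -0.93, edgeR adjusted p = 0.026), the glutathione synthesis gene GCLC (-0.94, 0.0284) and the peroxiredoxin PRDX1 (-1.34, 0.0314). PRDX1 had 645.8, 578.9 and 1108 CPM in ALDH+, against 1065, 1523 and 4157 CPM in ALDH- cells, so that C30 was the high line in both fractions.

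**Figure D5:**
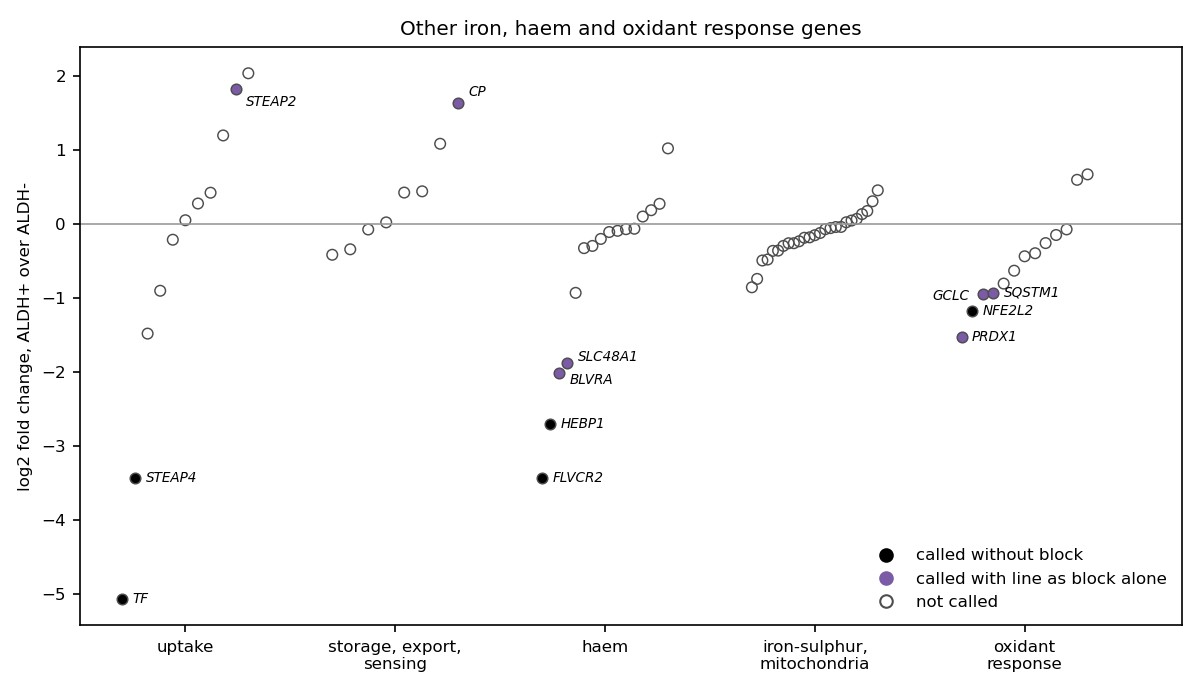
Log2 change (ALDH+ over ALDH-, fit without a block) of each tested gene in 4 lists of other iron genes and in the oxidant response list, ordered within a list. Black points were called without the block, purple points in the blocked fit and not in the other. TF lies lowest at -5.07, and the 25 iron-sulphur genes lie between -0.86 and 0.45.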

How the data were processed

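RNA from 6 libraries of sorted cells was sequenced; the submitters' processing notes name FastQC, Trimmomatic, HISAT2, kallisto, DESeq2 and the build GRCg6a, without versions or roles. Estimated counts per transcript were deposited by the authors for 28756 transcripts, with transcript lengths per the file headers, and 42.2% of counts above 0 were whole within 0.001. The TPM values were deposited by the authors per transcript. The authors' deposited DESeq2 table gives size-factor-scaled counts (a signal), a fold change as a ratio, its log2 value with a standard error, a test score, and p-values in unadjusted, adjusted and FDR columns, per the file headers.

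Estimated counts were summed per gene ID and rounded. The 319 transcripts without a gene ID (0.285 to 0.328% of counts) were left out. Genes passing filterByExpr (minimum count 10, minimum total 15), 12811 of 16963, were tested with edgeR 4.0.16 (TMM factors, quasi-likelihood test, R 4.3.3), with Benjamini-Hochberg adjustment over all of them and a threshold of 0.05. The procedure was also run on simulated counts, drawn at a common dispersion. For the comparison of the fractions these held no differences between lines, so they do not bear on the pairing. SE is the log2 change divided by the root of F. CPM use TMM-scaled library sizes, and differences within a line use log2 CPM with a prior count of 2. TPM per gene are sums over transcripts.

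The main design has no block, as the submitters' design text names none. Same-numbered libraries come from the same line, which pairs them, and their deviations from group means correlated at 0.661, 0.165 and 0.487 in C27, C29 and C30. Alternatives were the block on line, DESeq2 1.42.0, upper quartile factors, library size only, no filter on low counts, log2(TPM + 1) and log2(TPM + 0.1) with limma 3.58.1 on genes with at least 1 TPM in 3 libraries, limma-voom, and each library left out in turn. Libraries of a group are different lines, so p-values without the block set the difference between the fractions against the spread between these libraries. With the block they set it against how far the differences within lines vary between the lines. The labels give neither the number of birds per line nor whether sorts were repeated. An exact permutation test of 3 against 3 cannot go below 0.1 and was not used. The members and lists were chosen with earlier results of these data known. Beside the 10 genes, the text names up to 5 genes per list called in either fit, TF, the defining and most abundant markers, and the 5 nearest profiles of FTH1, TFRC and SLC11A1 by root mean square distance. COL1A1, KRT7, EPCAM, CDH1, KRT18, WT1, LUM, PDGFRA, PDGFRB, MFAP5, CIAO1, HBBA, HMOX2 and FTL were added after their values were seen. Sequences and genome positions were not used here.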

Additional observations from a re-analysis of the deposited data

Results flagged for a closer look

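SLC11A2 moved in opposite directions between lines. Its log2 CPM in ALDH+ minus ALDH- cells was 0.29 in C27 and 0.06 in C29, but -0.62 in C30. Each line has 1 library per fraction, and this difference between lines was not tested.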

How the results depend on the processing

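Of the 10 iron genes edgeR called 3, and 6 with the replicate block on line, 5 with DESeq2 and 1 with limma-voom (FTH1). Of all genes tested edgeR called 6.14%, and 13.5% with the block, and DESeq2 called 11.6%. With log2(TPM + 1) and with log2(TPM + 0.1), 2 were called (FTH1 and HMOX1). Over all genes these settings called 773 and 743 of 11652 tested, and limma-voom called 769 of 12811. Leaving out each library in turn gave 0 to 3. The 0 came without C27 ALDH+, where 4 had an unadjusted p under 0.05 in edgeR, a threshold for which no share of all genes is given. An adjusted p depends on all genes tested, and the number called over all genes moved too. It was 786 with all libraries, 1123 without C27 ALDH- and 443 to 567 without any other library. With the block, leaving out each library in turn gave 4 to 6 of the 10 iron genes, and upper quartile factors or library size only gave 6 each. These combined settings were chosen after seeing the data. Leaving out either library of a line takes that line out of the blocked comparison, which leaves few residual degrees of freedom. Over all genes the blocked fit called 2377 without C29 ALDH+, 2447 without C29 ALDH- and 1143 to 1246 without any other library. Of the 60 other iron genes 4 were called (6.67%), and 8 with the block (13.3%), near the shares of all genes. DESeq2 called 8 of them, where it called 11.6% of all genes. Leaving out each library in turn gave 2 to 7. Between lines 1 of the 10 iron genes was called, where 0.367% of all genes tested were. It was 1 to 2 when each library was left out. The log2 change of SLC11A2 turned positive under upper quartile factors (0.049), scaling by size alone (0.118), log2(TPM + 1) (0.331) and log2(TPM + 0.1) (0.345), and ran from -0.237 to 0.094 when each library was left out. In the blocked fit upper quartile factors gave 0.028 and scaling by size alone 0.09, and it was 0.193 without C30 ALDH+ and 0.236 without C30 ALDH-. NCOA4 ran from -0.08 to 0.613 when each library was left out. Over all genes the median was 0.12 under upper quartile factors, 0.18 under scaling by size alone, 0.36 with log2(TPM + 1) and 0.41 with log2(TPM + 0.1). Where no value above shows it, the cause was not tested. SLC11A1 and HEPHL1 rest on as few as 18 and 7 counts in an ALDH+ library, and 3 libraries per group limit every test.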
